A study of Mus musculus with 12 samples.

Results

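LGI ligands and their ADAM receptors were followed in sensory neuron fractions of mouse dorsal root ganglia (DRG), which serve the trunk and limbs, and trigeminal ganglia (TG), which serve the head. The set holds 7 of the 22609 genes listed for each library, chosen by symbol: the ligands Lgi1, Lgi2, Lgi3 and Lgi4, and the receptors Adam11, Adam22 and Adam23. They had been picked on measured values of these same libraries, their level and their TG against DRG difference, so that difference is given below as a description with no test. RNA came from naive C57BL mice (C57BL/6J in the study's methods) with no transgene or treatment, females in the estrous phase and males, for which the labels state an age of 3-4 month and the study's methods a younger one. Each sex and ganglion was represented by 3 libraries, 12 in all. Lumbar DRG and whole TG were dissociated with enzymes, cells were separated by density on Percoll, and the fraction enriched for neurons was taken for rRNA-depleted RNA-seq. Nothing in the labels says how many animals stand behind a library, so p-values measure the spread between these libraries, which may be partly technical.

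LGI proteins are secreted proteins built from leucine-rich repeats and a ring of EPTP repeats. They bind ADAM11, ADAM22 and ADAM23, members of the ADAM family of membrane proteins, which otherwise is known for shedding metalloproteases. At central synapses LGI1 bridges ADAM22 and ADAM23 across the cleft, next to AMPA receptors and shaker-type potassium channels, and mutations in LGI1 or antibodies against it cause epilepsy and encephalitis. In peripheral nerve LGI4 from Schwann cells acts on ADAM22 of the axon and is needed for myelination, and LGI3 belongs to potassium channel complexes of the axon.

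Sequence sets these 3 ADAM genes apart from the shedding enzymes and is printed here for that reason. The catalytic zinc site reads histidine, glutamate, 2 residues, histidine, 2 residues, glycine, 2 residues, histidine, and translated coding sequences of 19 of 32 annotated Adam genes held it. It was found in 0 of the 3 receptors, and other Adam genes, Adam2 and Adam7 among them, lacked it as well. The stretches below span 33 bases of coding sequence, taken from GENCODE transcripts in build mm9, with capitals marking the codons at the places of the first histidine, the glutamate and the second histidine. Adam9, one of the most abundant other Adam genes in these libraries, stands for the enzymes. Its stretch is exonic on the minus strand at chr8:26100798-26100830, that of Adam22 on the minus strand at chr5:8143064-8143096, that of Adam23 on the plus strand at chr1:63594337-63594369 and that of Adam11 on the plus strand at chr11:102634927-102634959.
Adam9: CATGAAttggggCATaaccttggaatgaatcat
Adam22: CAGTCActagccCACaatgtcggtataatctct
Adam23: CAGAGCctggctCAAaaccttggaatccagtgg
Adam11: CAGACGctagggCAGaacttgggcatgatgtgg
The places were found by alignment of the proteins without gaps in the stretch, to Adam19 for Adam22 (3 of 11 residues shared) and Adam23 (2 of 11), and through Adam23 for Adam11 (7 of 11), so that for the receptors they rest on few shared residues. Adam9 carried histidine codons at the first and last marked place and a glutamate codon between them. The receptors all had CAG at the first place and 3 different codons, none of them for glutamate, at the second, and Adam22 alone of the 3 kept a histidine codon, CAC, at the last. The members were too unlike for reads to be shared between them: identity of the coding sequences ran from 55.5% to 60.9% between ligands and from 50.4% to 58.0% between receptors, and the longest run of bases shared by transcripts of any pair was 25, against reads of 50 bases.

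In mm9 the 7 genes lie on 6 chromosomes and are protein coding: Lgi1 at chr19:38339272-38383429 (+), Lgi2 at chr5:52924758-52957542 (-), Lgi3 at chr14:70930628-70938130 (+), Lgi4 at chr7:31844361-31855954 (+), Adam11 at chr11:102622753-102641576 (+), Adam22 at chr5:8072352-8368160 (-) and Adam23 at chr1:63492465-63643089 (+). Lgi4 overlaps exons of Fxyd3 on the opposite strand. The strand setting of the counting is not given, and Fxyd3 had 7 to 137 counts per library against 597 to 2029 for Lgi4.

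Reads counted in genes ran from 7511765 to 15396090 per library, and a floor of 3 counts corresponded to 0.195 to 0.399 CPM (read counts relative to the library total, scaled by TMM factors to a common total). The share of uniquely aligned reads that fell outside genes was 43.5% to 50.4% in female and 37.6% to 47.9% in male libraries. Labels held: summed counts of 39 Hox genes, which pattern the trunk, were 1374 to 1902 in DRG and 147 to 394 in TG libraries, and Xist and Ddx3y separated the sexes without overlap. The 8 neuron markers were found in every library, with summed levels of 3730 to 7723 CPM in DRG and 3572 to 6397 in TG. The fractions were not pure, since the 5 Schwann cell markers summed to 1785 to 2783 CPM and the 6 satellite glia markers to 2481 to 6422 CPM. On a principal component analysis female DRG 1 and female TG 3 stood apart from the others. Fold changes and counts of called genes that rest on them are given without them as well, but correlations are not.

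The 7 genes were detected in all 12 libraries, and 7 of 7 passed the filter on low counts in each comparison. Adam22 and Adam23, the main neuronal LGI receptors, were by mean CPM the members with the highest levels, ahead of 98.5% and 98.2% of the 14829 genes tested, and Adam11 the lowest, ahead of 69.6%. Compared per length, as RPKM (CPM per kilobase of exon), the order in DRG was Adam22 at 40.5 ± 11.6 (SD, n = 6, as for the values that follow), Lgi3 at 29.1 ± 9.36, Adam23 at 26.5 ± 2.38, Lgi4 at 20.3 ± 10.1, Adam11 at 7.19 ± 2.55, Lgi1 at 6.63 ± 4.27 and Lgi2 at 4.46 ± 1.44. In TG it was Adam23 at 60.7 ± 11.4, Lgi3 at 49.8 ± 9.48, Adam22 at 46.3 ± 6.70, Lgi4 at 22.8 ± 10.2, Lgi2 at 19.3 ± 3.59, Adam11 at 9.76 ± 6.41 and Lgi1 at 6.18 ± 1.55. Neighbours in either order overlapped in range, so the order is that of means. Lgi4 was nevertheless above Adam11 within each of the 6 DRG libraries. The order differed between ganglia mainly in the place of Lgi2, lowest in DRG and above Adam11 and Lgi1 in TG, and of Adam23, which stood at the top in TG. Both orders depend on exon lengths from GENCODE M1, and the annotation used for counting is not given.

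**Figure D1:**
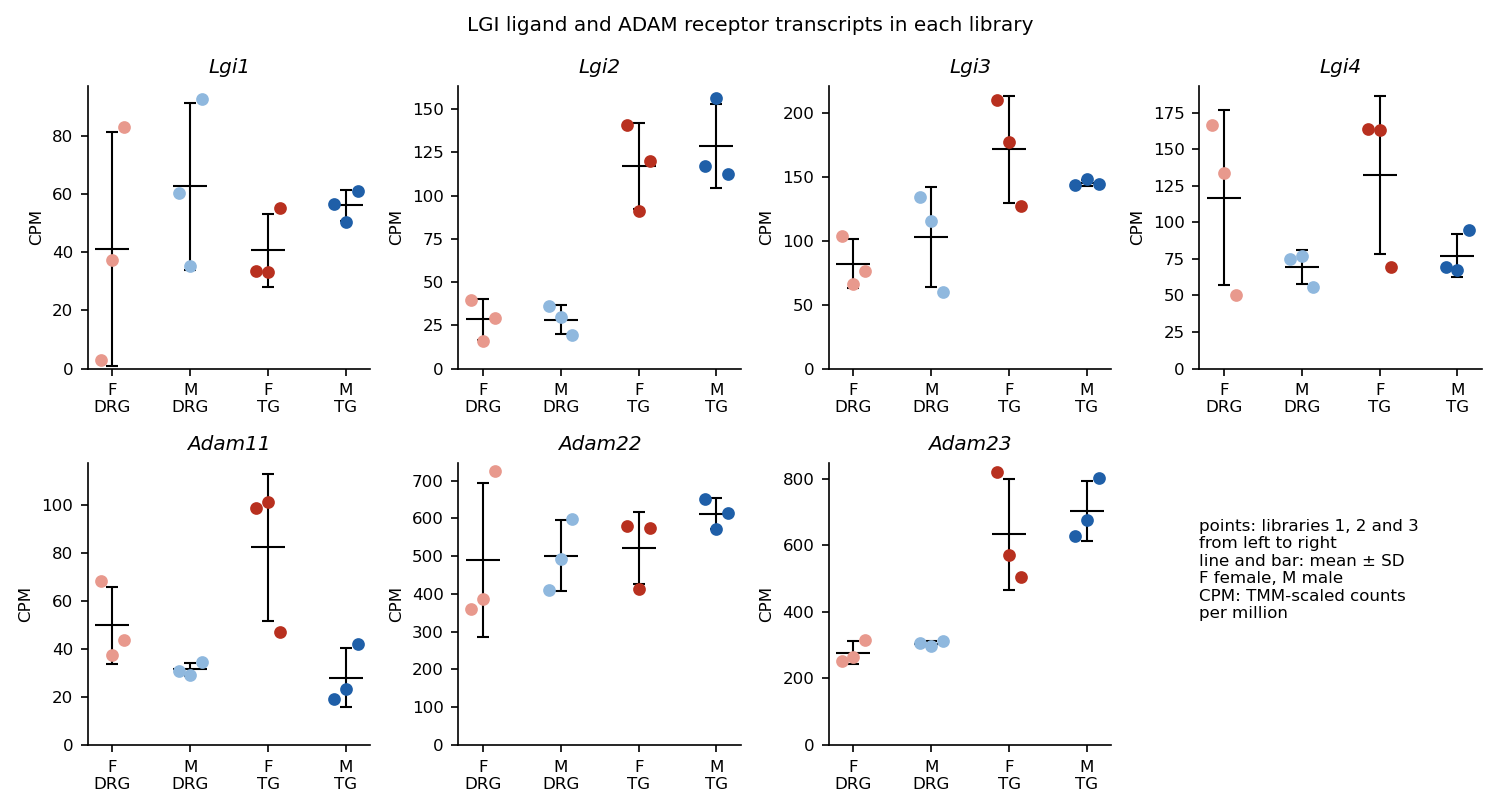
Level of each member in CPM (y axes, each from 0) in the 12 libraries, with points for libraries, lines for group means and bars for SD of 3 libraries. Lgi2 and Adam23 points in TG lie above those in DRG in both sexes, whereas female Adam11 points in TG lie above the male ones.

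In TG fractions the ligand Lgi2 and the receptor Adam23 stood 4.33-fold and 2.29-fold above DRG fractions, in both sexes and with no overlap between libraries. Lgi3 was 1.72-fold higher, while Lgi1, Lgi4, Adam11 and Adam22 differed by 1.21-fold or less. In RNA from a mixed fraction, fewer cells of a type and less RNA per cell cannot be told apart. Across all genes, 71 of 14829 (0.479%) were higher in TG by the criterion of adjusted p under 0.05 and fold above 2, and 114 (0.769%) differed in either direction. Lgi2 and Adam23 were the 2 members among them, both higher in TG, and since this contrast chose the members nothing is read from that count. Libraries did not overlap between ganglia for 1.36% of genes.

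Lgi2 encodes a secreted ligand whose loss causes juvenile epilepsy in dogs. Its level was 39.7, 16.2 and 29.3 CPM in the 3 female DRG libraries and 36.0, 29.7 and 19.3 CPM in the male ones. In TG it was 141, 90.9 and 120 CPM in females and 117, 156 and 113 CPM in males, so the lowest TG library held more than 2 times the level of the highest DRG library. Means were 28.4 ± 9.17 CPM in DRG and 123 ± 22.9 CPM in TG (SD, n = 6), a log2 fold change of 2.12 (SE 0.24) that ranked 232 from the top among the 14829 genes tested. Within females it was 2.05 (SE 0.33) and within males 2.18 (SE 0.34).

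Adam23, a receptor that binds LGI proteins from the axonal side, had 252, 265 and 316 CPM in female DRG and 305, 297 and 311 CPM in male DRG libraries. TG libraries held 819, 571 and 506 CPM in females and 627, 677 and 802 CPM in males, all above the DRG range. The log2 fold change was 1.20 (SE 0.17), with 1.19 (SE 0.24) in females and 1.21 (SE 0.24) in males. DRG values were tight, with an SD of 26.2 CPM around a mean of 291, against 125 around 667 in TG.

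Lgi3, the ligand of axonal potassium channel complexes, was at 103, 66.2 and 76.3 CPM in female DRG and at 134, 115 and 59.5 CPM in male DRG libraries. TG values were 210, 177 and 127 CPM in females and 143, 148 and 145 CPM in males. Within each sex the TG libraries lay above the DRG libraries, but over all 12 the ranges overlapped, because the lowest female TG library was below the highest male DRG library. The log2 fold change was 0.78 (SE 0.21), made up of 1.07 (SE 0.30) in females and 0.50 (SE 0.30) in males. A test of the difference between these 2 values gave 0.57 (SE 0.42), with an adjusted p of 0.9998 in edgeR's quasi-likelihood test.

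Lgi4, the Schwann cell ligand for myelination, did not separate the ganglia. DRG libraries held 166, 134 and 50.6 CPM in females and 75.0, 77.2 and 56.0 CPM in males, and TG libraries 164, 163 and 69.7 CPM in females and 69.7, 67.6 and 94.4 CPM in males. High values belonged to 2 female libraries of each ganglion, and the log2 fold change of TG over DRG was 0.17 (SE 0.27).

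Lgi1, the epilepsy gene of the family, varied most among DRG libraries relative to its mean. Levels were 2.85, 37.4 and 83.0 CPM in female DRG, 60.3, 35.2 and 92.6 CPM in male DRG, 33.4, 33.3 and 55.3 CPM in female TG and 56.7, 50.6 and 61.2 CPM in male TG. The value of 2.85 CPM rests on 24 reads in female DRG 1, the shallowest library and one that stands apart, while other DRG libraries had 375 to 1175 reads. The log2 fold change of TG over DRG was -0.090 (SE 0.45). With libraries left out in turn or together it ran from -0.51, without female DRG 1 and female TG 3, to 0.45 in libraries numbered 1 and 2.

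Adam22, the neuronal receptor that anchors LGI1 and receives LGI4, had a broad and similar level in both ganglia. It was 359, 386 and 726 CPM in female DRG, 411, 493 and 599 CPM in male DRG, 580, 412 and 575 CPM in female TG and 652, 573 and 613 CPM in male TG libraries. The log2 fold change was 0.19 (SE 0.20). Adam11, a receptor found with potassium channels at cerebellar inhibitory terminals, had 68.3, 37.6 and 43.9 CPM in female DRG and 30.8, 29.2 and 34.6 CPM in male DRG libraries. In TG it was 98.7, 101 and 47.2 CPM in females and 19.1, 23.2 and 42.1 CPM in males. Its log2 fold change of TG over DRG was 0.73 (SE 0.35) in females and -0.17 (SE 0.35) in males, and both together gave 0.28 (SE 0.25).

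**Figure D2:**
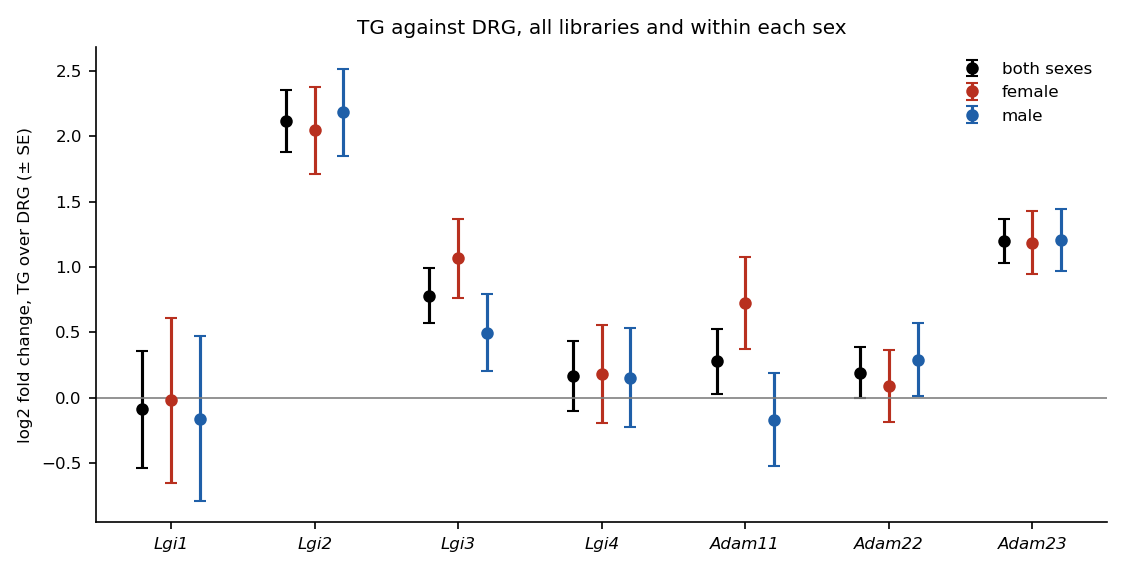
Log2 fold change of TG over DRG (y axis) for each member, with SE bars, over all 12 libraries and within each sex. Lgi2 (2.12) and Adam23 (1.20) have near-equal values in both sexes, and Adam11 points for the sexes lie on opposite sides of 0.

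These differences changed the make-up of the family per length. The 4 ligands summed to 60.5 ± 11.7 RPKM in DRG and 98.2 ± 17.7 RPKM in TG, and the 3 receptors to 74.1 ± 13.0 and 117 ± 15.1 RPKM (SD, n = 6). Lgi2 made up 7.31% ± 1.64 of ligand RPKM in DRG and 20.1% ± 4.76 in TG, while Lgi3 made up 47.5% ± 9.25 and 50.7% ± 1.19. Lgi1 and Lgi4 took the rest, with ranges of their shares that overlapped between ganglia. Among receptors, Adam22 held the larger share in DRG, 53.8% ± 6.05 against 36.2% ± 4.01 for Adam23. In TG the shares were 39.9% ± 6.08 for Adam22 and 51.7% ± 3.86 for Adam23. The ratio of Adam23 to Adam22 was 0.485 to 0.828 in DRG libraries and 0.981 to 1.57 in TG libraries, so that it fell below 1 in each DRG library and in 1 TG library, female TG 3. Such per-length values depend on exon lengths from GENCODE M1, and the annotation used for counting is not given. By CPM, without lengths, Adam23 was also below Adam22 in male TG 1, at 627 against 652.

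**Figure D3:**
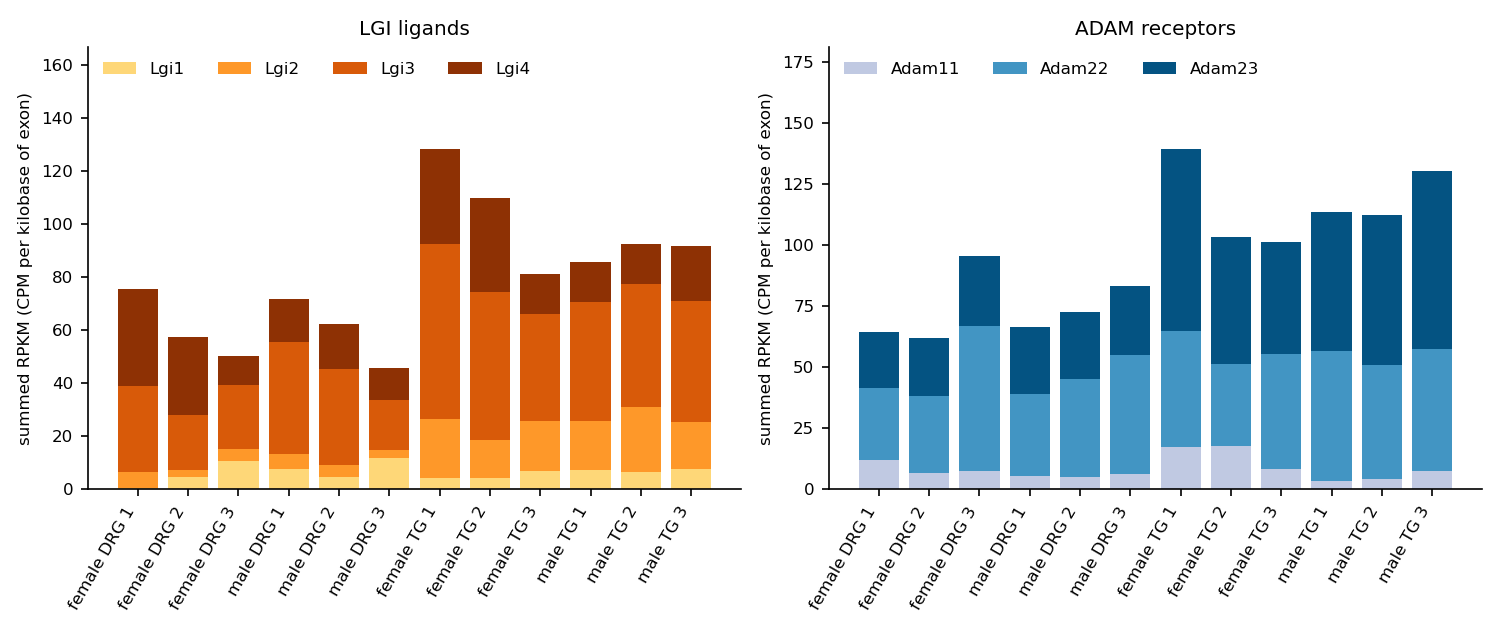
Stacked RPKM (y axes) of the 4 LGI ligands and the 3 ADAM receptors in each of the 12 libraries. The Lgi2 band widens from 7.31% of the ligand total in DRG to 20.1% in TG, and the Adam23 band from 36.2% to 51.7% of the receptor total.

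Levels of neuron class and Schwann cell markers stand beside these differences. Trpm8, the cold receptor channel, was at 47.0 to 70.8 CPM in DRG and 239 to 463 CPM in TG libraries (log2 fold change 2.65), and the 3 markers of C-fibre low-threshold mechanoreceptors summed to 129 to 289 CPM in DRG and 40.8 to 166 CPM in TG. Among those 3, Th met the criteria, lower in TG (log2 fold change -3.50), and the summed ranges overlapped. The 4 peptidergic markers summed to 1796 to 4253 CPM in DRG and 1059 to 2863 CPM in TG. The 4 non-peptidergic markers summed to 1381 to 2538 CPM in DRG and 1091 to 1605 CPM in TG, and among them Mrgprd was lower in TG with a log2 fold change of -0.78 (edgeR adjusted p = 0.0307). The 6 markers of large myelinated neurons overlapped, with summed levels of 1855 to 3015 CPM in DRG and 1930 to 2730 CPM in TG, as did the 5 Schwann cell markers, at 1785 to 2752 and 1866 to 2783 CPM. No marker of these lists was at 0 in any library. Their part in the differences of Lgi2 and Adam23 was not tested.

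Promoters of the pair that was higher in TG are shown for their sequence. RefSeq promoter windows were matched for 4 of the 7 members, Lgi1, Lgi2, Adam22 and Adam23, in build GRCm38.p6, whose coordinates are not those of mm9. The 250 bases before the gene start were searched on both strands for the GC box GGGCGG, the CCAAT box CCAAT, the TATA box TATAAA and the E-box CANNTG, and matches, none of which overlap another motif, are in capitals. Lgi2 lies on the minus strand at chr5:52566307-52566556 and Adam23 on the plus strand at chr1:63445641-63445890.
Lgi2: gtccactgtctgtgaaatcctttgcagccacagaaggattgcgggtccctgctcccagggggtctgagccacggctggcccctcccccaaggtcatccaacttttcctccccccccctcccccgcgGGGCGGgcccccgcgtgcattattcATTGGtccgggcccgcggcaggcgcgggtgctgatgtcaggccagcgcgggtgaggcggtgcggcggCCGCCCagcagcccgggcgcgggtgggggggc
Adam23: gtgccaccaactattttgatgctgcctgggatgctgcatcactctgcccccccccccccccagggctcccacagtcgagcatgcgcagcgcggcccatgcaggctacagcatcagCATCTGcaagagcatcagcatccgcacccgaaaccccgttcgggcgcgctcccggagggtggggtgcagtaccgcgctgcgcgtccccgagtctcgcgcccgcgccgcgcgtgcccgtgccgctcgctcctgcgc
The Lgi2 window held 2 GC boxes and 1 CCAAT box, and the Adam23 window 1 E-box. Over all 32851 windows of the same length, 32.7% held a GC box, 33.8% a CCAAT box, 12.4% a TATA box and 66.2% an E-box. Both windows were rich in G and C, at 72.4% and 70.4% with 21 and 27 CpG sites, against medians of 52.4% and 6. The windows of Lgi1 and Adam22 had 52.4% and 66.8% with 10 and 17 CpG sites. Of the 4 windows, only that of Adam23 was followed by bases found in a GENCODE transcript of its gene. The RefSeq starts of Lgi2, Lgi1 and Adam22 were not matched in that way. Matching letters are a description of these windows and not evidence of binding.

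Genes that work beside the LGI and ADAM proteins were described from a list of 25 partner genes, of which 24 passed the filter: synaptic scaffolds, AMPA receptor subunits and their auxiliary subunits, axonal shaker potassium channels and their cell adhesion partners. By adjusted p under 0.05 and fold above 2, 0 of 24 differed between TG and DRG with edgeR, and 0 with DESeq2. At an unadjusted p under 0.05 in edgeR there were 10, in both directions, where 8.83% of all genes tested passed. Of these, Kcnab1, Lin7b and Gria1, named after their values were seen, were lower in TG and the others higher. The list was chosen with earlier results of these data known. By edgeR's adjusted p alone 2 rose in TG, Kcna1 and Dlg2, where 0.964% of genes passed, and DESeq2's adjusted p alone gave 3 of the list. The median log2 fold change of the 24 genes was 0.28, with 14 above 0, beside -0.0078 over all genes tested.

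Kcna1 encodes a shaker channel subunit of the juxtaparanode and of axon terminals. Its level was 643, 518 and 531 CPM in female DRG, 489, 492 and 528 CPM in male DRG, 1370, 1032 and 815 CPM in female TG and 818, 803 and 1239 CPM in male TG libraries. No TG library was as low as the highest DRG library. The log2 fold change was 0.92 (SE 0.18, adjusted p = 0.0132 in edgeR's quasi-likelihood test with Benjamini-Hochberg adjustment), and over 24 alternatives it was 0.78 to 1.06, with adjusted p from 3.60e-05 to 0.756 and under 0.05 in 19. Dlg2, a scaffold that clusters these channels, had 56.9 to 108 CPM in DRG and 115 to 185 CPM in TG libraries, again without overlap. Its log2 fold change was 0.90 (SE 0.18, edgeR adjusted p = 0.0177), with a range of 0.80 to 1.04 and adjusted p under 0.05 in 18 of 24 alternatives. Kcna2, the partner subunit of Kcna1 and per length the other most abundant channel of the list, had a log2 fold change of 0.59 (SE 0.19) with edgeR's adjusted p = 0.207, and the auxiliary subunit gene Kcnab2 one of 0.39 (SE 0.19, adjusted p = 0.565).

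**Figure D4:**
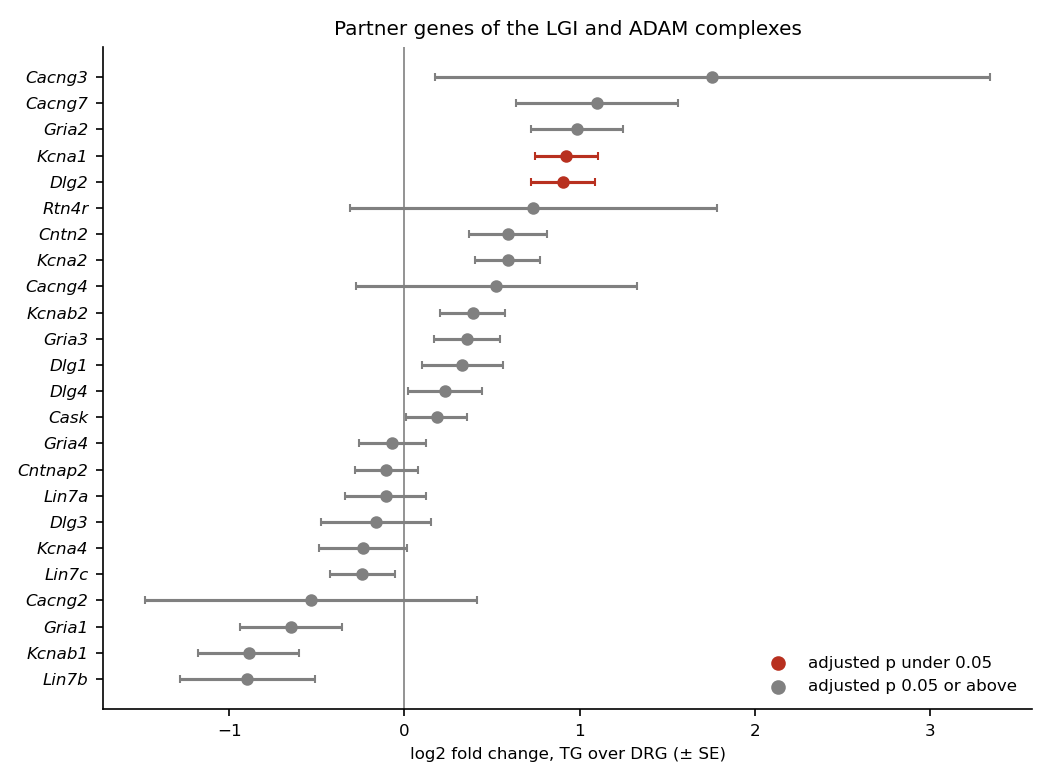
Log2 fold change of TG over DRG (x axis, SE bars) of the 24 partner genes tested, ordered by value. The 2 genes with an adjusted p under 0.05, Kcna1 (0.92) and Dlg2 (0.90), are in red, and 14 of the 24 points lie above 0.

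Other lists of the pathway gave no called gene between ganglia with edgeR. For the 14-3-3 adaptor genes, whose products bind ADAM22, it was 0 of 7, with Ywhag, Ywhae and Ywhah the most abundant per length at 341, 195 and 193 RPKM in TG. For 10 Schwann cell myelination genes, the setting in which LGI4 works, it was 0 of 10 with a median log2 fold change of 0.20, and Pmp22 and Mbp, which encode compact myelin proteins, had values of -0.23 and 0.16. Of 29 other Adam genes 13 passed the filter and 0 of 13 were called, led by the sheddases Adam10 and Adam9 at 36.8 and 37.3 RPKM in TG, with Adam19 at 10.3 RPKM. Gpr98, which like the LGI genes encodes EPTP repeats, was near the floor of detection with 0 to 88 counts and had a log2 fold change of 0.86 (SE 0.74). Of the 2 genes in that list, Tspear was not analysed here.

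Between the sexes, Adam11 was the member that stood out, 3.04-fold higher in female than in male TG fractions. Lgi4 had female over male values of 1.78-fold in TG and 1.70-fold in DRG that did not meet the criteria, and the other 5 members differed between the sexes by 1.54-fold or less. This comparison addressed the study's question of sex differences in sensory neurons, and it is not the contrast named in the choice of members, which were nevertheless picked with earlier results of these libraries known. By the study's criteria (fold above 2, unadjusted p under 0.05 and a level above 1, here in CPM), 1 of 7 members was called in TG and 0 of 7 in DRG, where 7.41% of 14009 genes tested and 4.97% of 13963 were called. By edgeR's adjusted p under 0.05 it was 0 of 7 in both, beside 0.0357% and 0.0358% of genes. The TG count over all genes depended on the tool and on 1 library: 5 genes had an edgeR adjusted p under 0.05, against 817 with DESeq2 and 3394 in edgeR without female TG 3.

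Adam11 female TG values of 98.7, 101 and 47.2 CPM lay above the male values of 19.1, 23.2 and 42.1 CPM without overlap, as they did for 23.8% of the genes tested in TG. The log2 fold change was 1.61 (SE 0.38), with adjusted p = 0.154 in edgeR's quasi-likelihood test, and DESeq2 gave an adjusted p of 0.00738. It was positive under 17 of 17 alternatives, from 0.65 to 2.25, and met the criteria in all but the 2 that remove trends with GC content and length (0.65, and 0.69 with the replicate block as well), where its fold was below 2. The GC content of Adam11 exons was above that of 95.8% of genes tested. The share of reads outside genes was 47.7%, 49.1% and 43.5% in female TG libraries 1 to 3 and 40.8%, 37.6% and 47.9% in male ones, and its part in the result was not tested. In DRG, females again lay above males without overlap, as for 17.5% of genes. The log2 value was 0.67 (SE 0.33, edgeR adjusted p = 0.442).

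Lgi4 was higher in females by a log2 fold change of 0.83 (SE 0.33) in TG, where its fold was below 2 (edgeR adjusted p = 0.206). In DRG the value was 0.77 (SE 0.39, edgeR adjusted p = 0.456). One library decided whether the criteria were met: without female TG 3 the TG value was 1.08, without male TG 3 it was 1.01, and without female DRG 3 the DRG value was 1.12, each past the criteria. With offsets for GC content and length it was 0.14 in TG. The female libraries at the high end of Lgi4, at 164 and 163 CPM in TG, were those numbered 1 and 2, in which Adam11 was also at its highest.

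**Figure D5:**
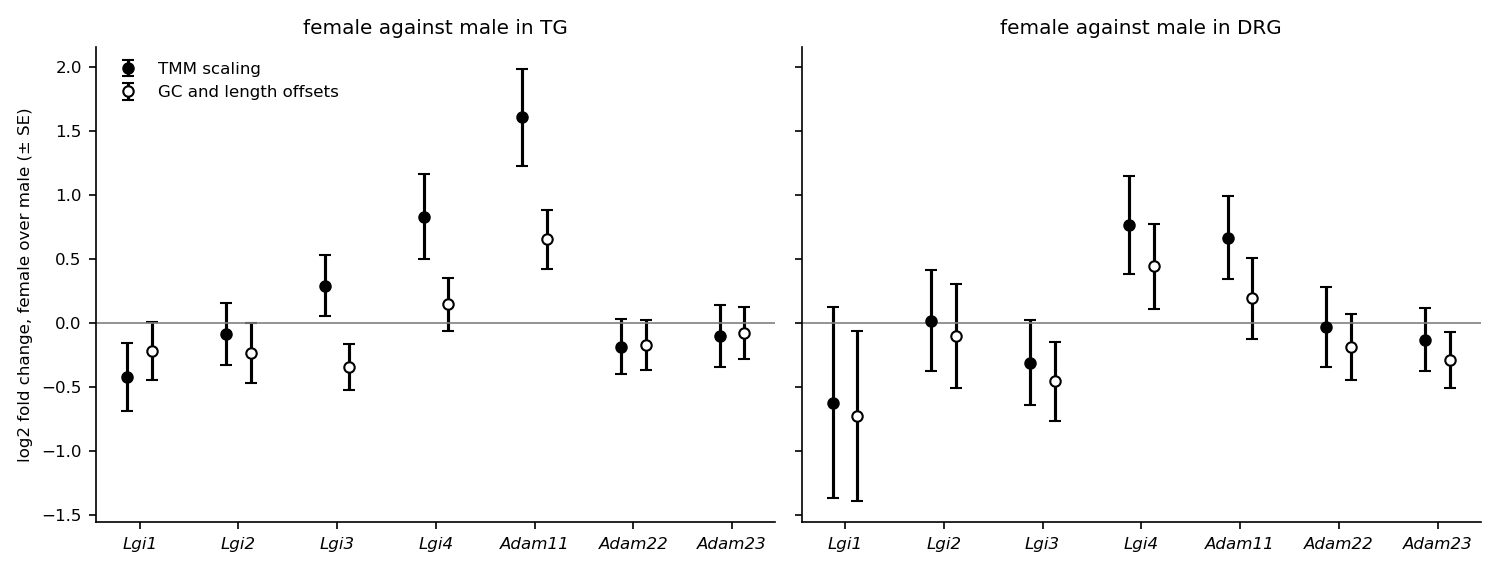
Log2 fold change of female over male (y axis, SE bars) in TG and in DRG, with TMM scaling (filled) and with added offsets for GC content and length (open). Adam11 in TG goes from 1.61 to 0.65, and Lgi3 in TG from 0.29 to -0.35.

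Cell type markers also differed in level between the sexes. In DRG the 8 neuron markers summed to 3730 to 6515 CPM in female and 5694 to 7723 CPM in male libraries. In TG they summed to 3572 to 5721 and 3944 to 6397 CPM. The 4 peptidergic markers were at 1796 to 2006 CPM in female and 2563 to 4253 CPM in male DRG libraries. Their TG sums were 1059 to 1867 and 1522 to 2863 CPM. Means of the non-peptidergic and large myelinated lists were instead higher in females in both ganglia. In TG, Prx (log2 1.11, edgeR adjusted p = 0.222), which encodes a protein of myelinating Schwann cells, was called higher in females under the study's criteria. Those criteria use the unadjusted p. Of the 5 Schwann cell markers 4 were higher in females in TG, with Mbp at 0.70 and Mag at 1.13, and Pmp22 at -0.52 was the exception. In DRG 4 of the 5 were likewise higher in females. The 5 Schwann cell markers together summed to 2050 to 2783 CPM in female and 1866 to 2526 CPM in male TG libraries. Pmp22 alone had a mean of 1145 CPM in TG, beside 2208 CPM for the sum. Macrophage markers (5 genes) summed to 126 to 266 CPM in female and 42.6 to 116 CPM in male TG libraries, and 67.3 to 200 and 54.0 to 70.6 CPM in DRG. Endothelial markers (4 genes) were at 287 to 463 CPM in female and 186 to 286 CPM in male TG libraries, and fibroblast markers (5 genes) at 910 to 1350 CPM in female and 561 to 1254 CPM in male TG libraries. The part of all these markers in the Adam11 and Lgi4 values was not tested. Among other Adam genes Adam15 was called higher in females in both ganglia, with log2 values of 1.17 in TG (edgeR adjusted p = 0.154) and 1.02 in DRG.

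For the other members no sex value met the criteria. In TG they were -0.42 (SE 0.27) for Lgi1, which was -0.75 without female TG 3, -0.088 (SE 0.24) for Lgi2, 0.29 (SE 0.24) for Lgi3, -0.19 (SE 0.21) for Adam22 and -0.10 (SE 0.24) for Adam23. In DRG, Lgi1 had -0.62 (SE 0.74), which was -0.078 without female DRG 1 and -1.64 without female DRG 3, and Lgi2, Lgi3, Adam22 and Adam23 had 0.018 (SE 0.40), -0.31 (SE 0.33), -0.033 (SE 0.31) and -0.13 (SE 0.25). The difference of the sex effect between ganglia was called for 0 of 7 members and 0% of 14829 genes by adjusted p with edgeR, and for 0 with DESeq2, with 292 and 388 genes at an unadjusted p under 0.05. Adam11 came nearest, at a difference of 0.89 (SE 0.50, edgeR adjusted p = 0.9998).

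Genes whose level followed each member most closely were found by Pearson's r of log2 CPM over the 12 libraries among 14828 other genes. These points share libraries, depth and, for genes that differ between ganglia, the 2 groups of libraries, so r is given as a description. Lgi2 was followed by Meis2, a homeobox transcription factor (r = 0.972), Kcng4, a modulatory potassium channel subunit (0.964), Glb1l2 (0.962), Calb2, the calcium-binding protein calretinin (0.958), and Sgk1, a stress-responsive kinase (0.957). Adam23 was followed by Scn8a, the sodium channel of nodes of Ranvier (0.971), and Ralgapa2 (0.965), and Lgi3 by Atp11a, a lipid flippase (0.938), and Hapln4, a link protein of the extracellular matrix (0.931). After group means were removed, r was 0.809 for Meis2 with Lgi2 and 0.801 for Scn8a with Adam23.

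The remaining 4 members followed genes that do not separate the ganglia. For Lgi4 they were Aldh2 (0.984) and Irf2bp2 (0.980), for Adam11 Dpysl5, a growth cone protein (0.973), and Usp20 (0.948), for Adam22 Abcf2 (0.949) and Hecw1 (0.948), and for Lgi1 Ints12 (0.978) and G6pdx (0.975). Lgi1 was at 2.85 CPM in female DRG 1 and at 33.3 to 92.6 CPM in the other libraries. That library can carry each r of Lgi1, and r was not computed without it. Among the members, Lgi2 and Adam23 had r = 0.913 over 12 libraries but 0.109 once group means were removed, whereas Lgi2 and Lgi3 had 0.857 and 0.713. Lgi4 and its receptor gene Adam22 ran in opposite directions, with r = -0.665 and -0.788 within groups. Lgi4 had r = 0.902 (0.942 within groups) with Sox10, a transcription factor gene of the myelination list. Adam11 had 0.903 (0.884 within groups) with Mbp. Other glial genes did not run alike. The myelin gene Pmp22 had r = -0.829 with Lgi4 and -0.773 with Adam11, and -0.786 and -0.441 within groups. The satellite glia gene Fabp7 had -0.616 with Adam11 but -0.036 within groups, and -0.081 with Lgi4 but 0.668 within groups.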

How the data were processed

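Total RNA of Percoll-enriched sensory neuron fractions was sequenced by the authors as stranded 50-base single reads after rRNA depletion. The authors aligned reads to mm9 with TopHat2 and counted them with HTSeq, and the deposited values are raw counts for each gene symbol, not normalized. The annotation, strand setting and versions are not given in the sources used here. Per library, 7511765 to 15396090 counts fell in genes. SD and SE include the spread between libraries, whereas the floor concerns counting only.

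Groups came from sample titles. The members, gene lists and tests were chosen with earlier results of these data known. Positions, lengths and GC contents came from GENCODE M1 (NCBIM37, mm9), which matched 21627 of 22609 genes (95.7%). edgeR 4.0.16 in R 4.3.3 was used with filterByExpr, TMM factors and quasi-likelihood F-tests, with Benjamini-Hochberg adjustment over all genes tested. TG was set against DRG, as the mean of both sexes, in 1 model of 12 libraries, and the sexes were compared in the 6 libraries of each ganglion. SE is the size of the log2 fold change divided by the root of F. The scripts were tested on simulated counts. Alternatives were DESeq2 1.42.0, other scalings and filters, offsets for GC content and length, a replicate block, left-out libraries and 1 sex alone. Named genes were the members, in each list the called genes and the 3 most abundant per length, the 5 genes most like Lgi2 and the 2 most like each other member, and 1 gene under this rule is not reported here.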

Additional observations from a re-analysis of the deposited data

Results flagged for a closer look

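Adam22 in the 6 TG libraries held 1 value far from the others. Female TG 2 was lowest at 412 CPM, while the other 5 libraries lay between 573 and 652 CPM, and its gap to the next library took 0.669 of the whole range, above Dixon's 95% critical value for 6 samples. Each of the 7 members was examined in TG and in DRG, 14 groups in all, and chance flags about 1 in 20 groups. Without that library the log2 fold change of Adam22 in TG over DRG was 0.26, against 0.19 with it.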

How the results depend on the processing

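Under the alternatives 455 recomputed values kept their direction and side of the criteria, 33 reversed, 18 counts moved, and 10 single genes left the criteria (4) or entered them (6). The log2 fold changes of Lgi2 and Adam23 in TG over DRG stayed at 1.98 to 2.27 and 1.08 to 1.27 under all 24 alternatives. The count of called members in TG against DRG, 2 with all libraries, was 0 in female libraries alone and 2 in male libraries alone. It is given as a description, from which nothing is read, and the cause was not tested. For the sexes in TG it was 1, and became 0 with GC and length offsets, 0 with the replicate block added to them and 0 by adjusted p under 0.05, 2 without female DRG 1 and female TG 3 and 2 in libraries numbered 1 and 2. In DRG it was 0, and 1 in libraries numbered 1 and 2. With single libraries left out, the counts ran from 1 to 2 (TG) and from 0 to 1 (DRG). Called partner genes, 0 of 24, became 1 with the replicate block, 1 with GC and length offsets, 1 with both, 1 in libraries numbered 1 and 2, 2 without female DRG 1 and female TG 3, 2 by adjusted p alone, and 0 to 2 with single libraries left out (2 without female DRG 3 and 2 without female TG 3). The genes called there, named after their values were seen, were Gria2, Dlg2, Kcna1 and, lower in TG, Kcnab1.

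The cause of the reversals was not tested. For TG over DRG, Lgi1 was 0.28 with the replicate block, 0.30 with block and offsets, 0.45 in libraries numbered 1 and 2 and -0.36 to 0.42 with single libraries left out. Lgi4 was -0.017 with offsets, -0.011 in libraries numbered 1 and 2 and -0.013 to 0.34 with single libraries left out, and Adam11 -0.040 with offsets, -0.024 with block and offsets and -0.17 in male libraries. For the sexes in TG, Lgi2 was 0.031 with library size scaling and -0.28 to 0.071 with single libraries left out, and Adam23 0.013 with library size scaling, 0.099 in libraries numbered 1 and 2 and -0.38 to 0.011 with single libraries left out. Lgi3 was -0.35 with offsets and -0.35 with block and offsets. In DRG, Lgi2 was -0.033 with the replicate block, -0.10 with offsets, -0.16 with both, -0.31 without female DRG 1 and female TG 3, -0.20 in libraries numbered 1 and 2 and -0.31 to 0.30 with single libraries left out. Adam22 was 0.12 with library size scaling, 0.14 without female DRG 1 and female TG 3 and -0.43 to 0.15 with single libraries left out, and Adam23 0.039 with library size scaling.

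Library size scaling moved the median log2 value of all genes between the sexes from 0.047 to 0.16 in TG, and in DRG from 0.021 to 0.19, and the calls from 721 higher and 317 lower in females to 1031 and 163 in TG, and from 281 and 413 to 583 and 165 in DRG. With GC and length offsets, genes called between the sexes were 195 higher and 100 lower in TG and 310 and 142 in DRG. Labels number libraries 1 to 3 in each group, and same-numbered libraries deviated together with r of -0.098 to 0.216. Whether the numbers mark pairs is not stated, and the main fits did not pair them. The replicate block changed calls over all genes from 114 to 185 for TG against DRG, and for the sexes from 1038 to 833 (TG) and from 694 to 665 (DRG). It raised the genes with an edgeR adjusted p under 0.05 for TG against DRG from 143 to 562. Libraries correlated best with their own number in 6 of 6 for the sexes in DRG, 0 of 6 in TG and 4 of 6 between ganglia in either sex. With 3 libraries a group and unequal depths, the SE is not a limit of detection, and differences larger than it could also be missed. Lgi4 between the sexes in DRG, at 0.77 with an SE of 0.39, had an unadjusted p of 0.0698 in edgeR's quasi-likelihood test.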
